A study of Mus musculus with 6 samples.

Results

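The Klk6 Anln mature oligodendrocytes of the mouse preoptic region, called Klk6 cells here, were cells that carried the general genes of mature oligodendrocytes together with Klk6, Anln or Serpinb1a, and that held no molecule of Il33. They were picked from single-cell RNA counts by fixed limits on unique molecular identifiers (UMIs, each a tag for 1 captured RNA molecule). A cell needed at least 500 detected genes and at most 20% of its UMIs from mitochondrial genes. It then needed at least 3 UMIs summed over Mog, Mag, Ermn and Aspa, called the oligodendrocyte gate here, at least 3 UMIs summed over Klk6, Anln and Serpinb1a, 0 UMIs of Il33, and at most 1 UMI summed over Gad1, Slc17a6, Cx3cr1 and Cldn5, which mark neurons, microglia and endothelial cells. These limits took 921 cells, which were 10.1% of the 9139 cells that passed the oligodendrocyte gate, out of 30824 cells that passed the limits on genes and mitochondrial UMIs and 31299 cell barcodes in all. The other 8218 gated cells are called the others.

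Oligodendrocytes wrap axons of the central nervous system in myelin, and after they have matured they still differ from each other in gene expression. Klk6 is a secreted trypsin-like serine protease that is abundant in some mature oligodendrocytes, Anln (anillin) is a scaffold for the septin filaments that run inside myelin, Serpinb1a is an intracellular inhibitor of serine proteases, and Hapln2 is a link protein of the matrix around nodes of Ranvier. Il33 is a nuclear cytokine that other mature oligodendrocytes hold.

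Cells came from 3 female and 3 male libraries. Each library was a pool of 3 mice, 60 to 70 days of age, and every mouse had been kept alone for 3 days before the tissue was taken. Fresh tissue was dissociated with protease and live cells were sorted, with no sort for a cell type, and no genotype, treatment or marker divided the groups other than sex. The numbers of Klk6 cells by replicate were 105, 240 and 17 for the females, with 202, 272 and 85 for the males. Because each library is a pool, the spread between libraries is a spread between pools and not between mice.

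Female replicate 3 stood apart as the smallest library, with 451 barcodes against 2004 to 9845 in the other 5, so its 17 Klk6 cells gave a sum of only 68210 UMIs. The other 5 libraries gave 391113 to 1509859 UMIs from Klk6 cells. Klk6 cells held a median of 5126 UMIs and 2019 genes, against 5465 UMIs and 2113 genes in the others. Scrublet, a doublet caller, marked 1002 of the 30824 cells (3.25%) and 25 of the 921 Klk6 cells. Among all barcodes, 479 barcode sequences occurred in more than 1 library, 23 Klk6 cells carried such a barcode, and 1 barcode sequence belonged to Klk6 cells of more than 1 library. Values per library are given below as CPM, the UMIs of a gene per 1000000 UMIs summed over all cells of that population in that library.

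The start regions of 3 genes whose levels moved together across the cells are shown. The levels below are values per gene and were not counted over these windows. They run from 250 bases before to 50 bases after the annotated start, read 5′ to 3′ on the strand of the gene, and come from RefSeq on build GRCm38.p6. Capitals mark ACAAAG or ACAATG, or their reverse complements CTTTGT and CATTGT, the short core motifs that SOX factors bind. The Klk6 gene has 2 annotated starts on the plus strand of chromosome 7, at chr7:43824294-43824593 and chr7:43825200-43825499, Hapln2 lies on the minus strand at chr3:88027462-88027761, and S100b lies on the plus strand at chr10:76253586-76253885.
Klk6 start 1: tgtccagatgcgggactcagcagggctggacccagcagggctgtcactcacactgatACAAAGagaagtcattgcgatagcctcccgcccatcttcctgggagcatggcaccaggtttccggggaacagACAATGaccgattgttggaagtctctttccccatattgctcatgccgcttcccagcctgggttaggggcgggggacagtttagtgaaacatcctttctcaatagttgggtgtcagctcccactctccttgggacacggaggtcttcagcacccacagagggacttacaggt
Klk6 start 2: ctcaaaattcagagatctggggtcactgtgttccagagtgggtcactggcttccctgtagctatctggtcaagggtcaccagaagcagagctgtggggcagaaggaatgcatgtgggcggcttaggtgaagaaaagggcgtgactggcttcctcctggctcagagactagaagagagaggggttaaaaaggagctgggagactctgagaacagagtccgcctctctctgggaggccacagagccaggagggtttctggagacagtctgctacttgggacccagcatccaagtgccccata
Hapln2: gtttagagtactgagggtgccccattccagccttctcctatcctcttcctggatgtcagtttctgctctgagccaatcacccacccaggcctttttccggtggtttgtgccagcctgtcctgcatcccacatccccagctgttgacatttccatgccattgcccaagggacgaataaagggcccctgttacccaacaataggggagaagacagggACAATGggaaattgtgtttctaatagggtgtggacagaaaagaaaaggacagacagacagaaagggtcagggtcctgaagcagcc
S100b: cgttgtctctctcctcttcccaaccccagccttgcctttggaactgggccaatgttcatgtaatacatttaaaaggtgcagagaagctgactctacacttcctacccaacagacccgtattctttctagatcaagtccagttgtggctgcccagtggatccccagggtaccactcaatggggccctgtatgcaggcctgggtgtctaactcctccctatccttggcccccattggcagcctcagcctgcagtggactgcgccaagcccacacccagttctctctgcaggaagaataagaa
The first Klk6 window held 2 matches, whose first bases lay 193 and 121 bases before the start, and the second held 0. The Hapln2 window held 1 match, 35 bases before the start, and the S100b window held 0. Among windows not shown, that of Ptgds, a gene lower in Klk6 cells, held 1 match, 24 bases after the start. Those of Anln and Il33 held 0. For comparison, 28.6% of 32851 RefSeq start windows of the same length held at least 1 match, and a match is a run of letters, not a measured binding site.

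On build mm10, with positions from the GENCODE M21 annotation matched by Ensembl identifier, Klk6 (ENSMUSG00000050063) spans chromosome 7 from 43824499 to 43832030 on the plus strand. Anln (ENSMUSG00000036777) spans chromosome 9 from 22332012 to 22389188 on the minus strand, Serpinb1a (ENSMUSG00000044734) chromosome 13 from 32842092 to 32851185 on the minus strand, and Hapln2 (ENSMUSG00000004894) chromosome 3 from 88021750 to 88027583 on the minus strand. No exon of another annotated gene overlapped these 4 genes. Values are given per gene, so none below refers to a single exon or untranslated region.

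The genes that chose the cells are described first, with no test. Klk6 stood at 672, 736 and 308 CPM in Klk6 cells of the female and 899.5, 848 and 639 CPM in those of the male libraries. In the others it ranged over the 6 libraries between 21.2 and 54.3 CPM, with a mean of 37.9 ± 14.4 CPM (SD, n = 6). Every library was higher in Klk6 cells than any library was in the others, and female replicate 3 had the lowest Klk6 level of the Klk6 cells. Anln averaged 449.6 ± 56.2 CPM in Klk6 cells and 84.8 ± 31.0 CPM in the others (SD, n = 6 libraries each). Serpinb1a averaged 944 ± 106 CPM in Klk6 cells and 263 ± 78.0 CPM in the others (SD, n = 6 each). Its near copies Serpinb1b and Serpinb1c reached at most 14.7 and 0.709 CPM in any library of Klk6 cells, and reads shared between such copies could be assigned to either.

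Hapln2, which was not in the limits but was named with these cells, stood at 1051, 933 and 1305 CPM in Klk6 cells of the female and 1065, 1033 and 1291 CPM in those of the male libraries. In the others it stood at 263, 238 and 573 CPM in the female and 215, 286 and 318 CPM in the male libraries. The ranges did not overlap, and a Hapln2 UMI was found in 97.0% of Klk6 cells and 59.9% of the others. The oligodendrocyte genes of the gate were also abundant in the Klk6 cells, with Mag, an adhesion protein of the innermost myelin, at 3842 to 5426 CPM and Mog, an outer myelin protein, at 1992 to 3119 CPM. The limits set the presence of Klk6, Anln, Mag and Mog, so among the markers named with these cells Hapln2 alone was free to differ from the label.

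Serpinb1a, not Klk6, brought most cells over the limit. A Serpinb1a UMI was present in 96.6% of Klk6 cells, an Anln UMI in 86.0% and a Klk6 UMI in 61.1%. Of the 921 cells, 470 (51.0%) held UMIs of all 3 genes, 292 (31.7%) held Anln and Serpinb1a but no Klk6, and 60 (6.51%) held Serpinb1a alone. So 358 Klk6 cells had no Klk6 UMI.

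RNA that leaks from broken cells puts UMIs into cells that do not express a gene. It was gauged in 4716 neurons, taken as cells with at least 3 UMIs of Gad1 and Slc17a6 that carried no UMI of the oligodendrocyte gate. They held a median of 7702 UMIs per cell. Neurons that took up a UMI of the oligodendrocyte gate are thus left out, so the shares below may understate the leak. Klk6 was seen in 2.10% of these neurons, Anln in 1.70%, Serpinb1a in 4.37%, Hapln2 in 4.92% and Il33 in 8.38%. The first 4 shares were far below those of Klk6 cells, where the limits themselves raised the shares of Klk6, Anln and Serpinb1a. Only 1 of the 4716 neurons reached the sum of 3 UMIs over Klk6, Anln and Serpinb1a. Il33 in 8.38% of neurons means that a single Il33 UMI, which keeps a cell out, also occurs in cells of another type.

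**Figure D1:**
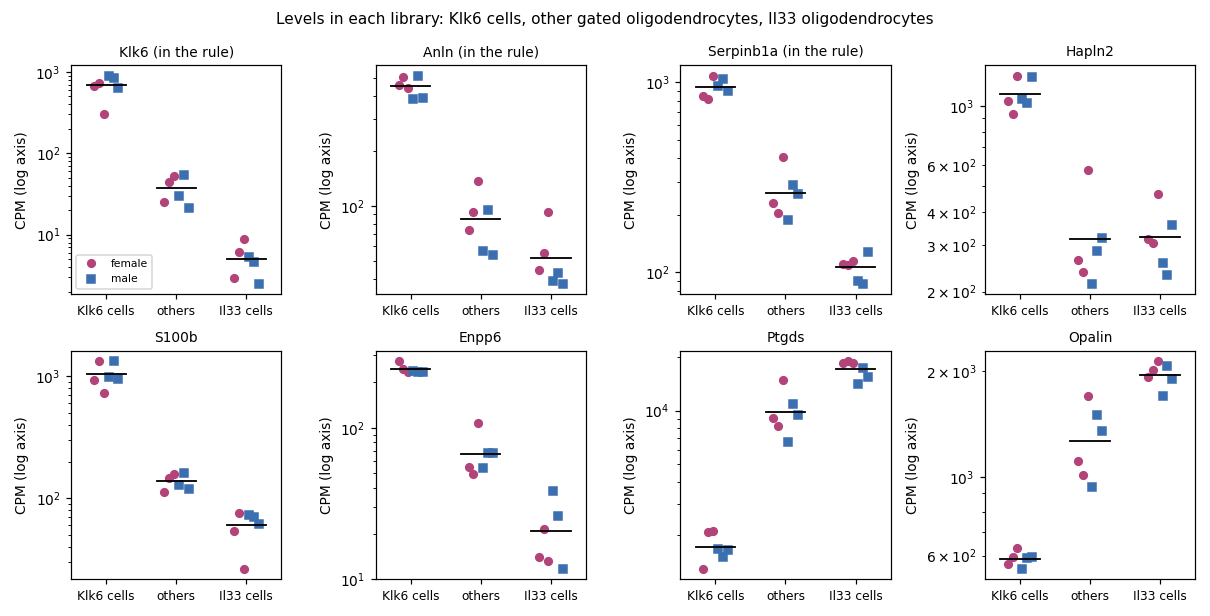
Each point is the CPM of 1 library on a log axis, for female (circles) and male (squares) libraries, and the line is the mean of 6 libraries, in Klk6 cells, the other gated oligodendrocytes and the Il33 oligodendrocytes. Hapln2 and S100b are higher and Ptgds and Opalin lower in every library of Klk6 cells than in any library of the other populations.

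The limit of 3 UMIs cut through a continuous range of cells. The 76 Klk6 cells at exactly 3 UMIs held 652 CPM Hapln2, 342 CPM S100b and 4648 CPM Ptgds, summed over cells. The 80 cells at exactly 2 UMIs that met all other limits held 678 CPM Hapln2, 284 CPM S100b and 7622 CPM Ptgds. The limit on Il33 mattered more for the number of cells. A further 2245 gated cells (24.6%) reached 3 UMIs of Klk6, Anln and Serpinb1a but held Il33. Summed over these cells Klk6 was at 120.0 CPM, Hapln2 at 540 CPM, S100b at 220.1 CPM and Ptgds at 11775 CPM. In the 921 Klk6 cells the same sums were 784 CPM Klk6, 1037 CPM Hapln2, 1169 CPM S100b and 1702 CPM Ptgds. The 294 of these excluded cells with exactly 1 Il33 UMI lay between, with 265 CPM Klk6, 746 CPM Hapln2, 517 CPM S100b and 4647 CPM Ptgds.

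Across all gated cells within the limit on neuronal, microglial and endothelial genes, Il33 and Klk6 were less often found together in cells with several Klk6 UMIs than in cells with 0 or 1. Il33 was missing from 19.9% of the 6204 cells with 0 Klk6 UMIs, 35.8% of the 450 cells with 1, 58.4% of the 137 cells with 2, 65.4% of the 133 cells with 3 to 4, 74.6% of the 177 cells with 5 to 9, 65.4% of the 136 cells with 10 to 19, and 77.2% of the 57 cells with 20 or more. The share did not grow at every step. In female replicate 1, Il33 was at 130 CPM in the 31 cells with 3 to 9 Klk6 UMIs and 397 CPM in the 17 cells with 10 or more, and in female replicate 2 at 194 CPM in 98 cells and 246 CPM in 56 cells. The exact 95% binomial intervals were 18.95 to 20.95% at 0 Klk6 UMIs and 64.2 to 87.3% at 20 or more, and they cover counting error only. Cells with more Klk6 UMIs were also deeper, with median totals of 4779.5 UMIs at 0 and 8903 UMIs at 20 or more.

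Genes outside the limits also varied with the number of Klk6 UMIs. S100b, a calcium-binding protein of glia, was at 157, 331, 670, 981, 1365, 1730 and 2526 CPM in cells with 0, 1, 2, 3 to 4, 5 to 9, 10 to 19 and 20 or more Klk6 UMIs. Hapln2 was at 339 CPM in cells with 0 Klk6 UMIs and 1155 CPM in those with 20 or more, with most of that difference reached by 2 UMIs (944 CPM). Ptgds, the enzyme that makes prostaglandin D, was at 12763 CPM with 0 and 2613 CPM with 20 or more, and Opalin, a membrane glycoprotein of myelinating cells, at 1695 and 462 CPM. Ptgds did not fall at every step, since it was 2922 CPM at 3 to 4 and 4160 CPM at 5 to 9 Klk6 UMIs. These are descriptions of cells from all libraries together, with no test.

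**Figure D2:**
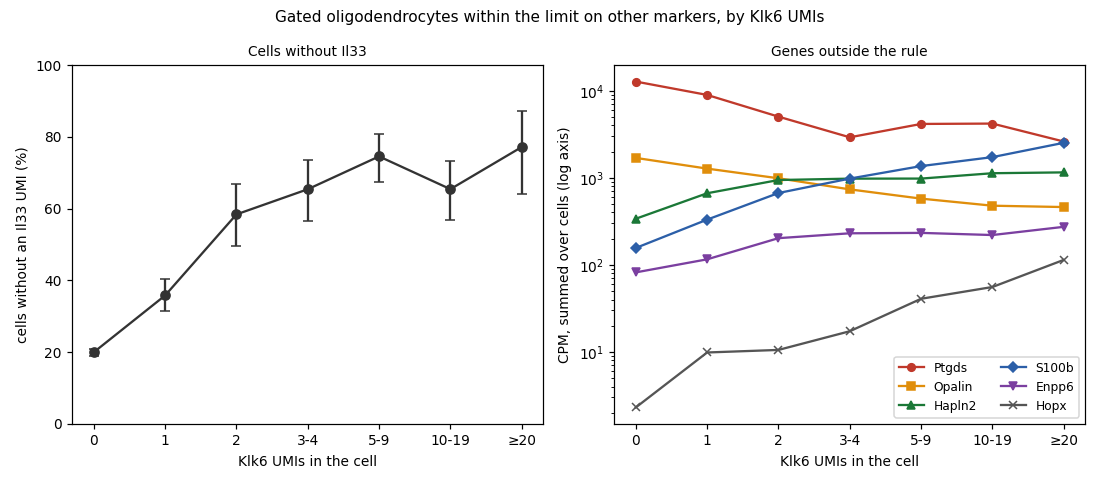
Gated cells within the limit on other markers are divided by their number of Klk6 UMIs, from 0 to 20 or more. The left axis shows the percentage of cells without an Il33 UMI with exact 95% binomial intervals, from 19.9 to 77.2%, and the right axis shows CPM summed over cells on a log axis, where S100b, Hapln2, Enpp6 and Hopx are higher and Ptgds and Opalin lower in the cells with most Klk6 UMIs.

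Among the Klk6 cells themselves, those with a Klk6 UMI differed from those with Anln or Serpinb1a alone. The 563 cells with a Klk6 UMI held 1589 CPM S100b, 47.4 CPM Hopx, 843 CPM Ptgds and 325 CPM Opalin, summed over cells. The 358 cells without one held 427 CPM S100b, 11.6 CPM Hopx, 3220 CPM Ptgds and 1034 CPM Opalin. S100b was higher and Opalin lower in the cells with a Klk6 UMI in 6 of 6 libraries. Ptgds was lower in them in 5 of 6 libraries and higher in female replicate 3 (2484 against 1635 CPM), where the groups were 9 and 8 cells. Hopx was higher in 5 of 6 libraries, and in female replicate 3 it was 0 CPM with and 33.4 CPM without a Klk6 UMI. Apod, a lipid-binding secreted protein, was at 4017 CPM in cells with and 2879.9 CPM in cells without a Klk6 UMI. The median totals were 5458 UMIs per cell with and 4667.5 UMIs per cell without one.

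The next question was how far other genes differed between the Klk6 cells and the others of the same pools. UMI sums per library and population were tested with the edgeR quasi-likelihood test, with library as block and Benjamini-Hochberg adjustment over all genes tested, and a gene was called at adjusted p under 0.05. The 12 genes of the limits and Hapln2 were left out of the tests. The tests cover other genes of the same cells that the limits picked, so a call says that a difference repeated across the 6 pools. Of 8946 genes tested, 4257 (47.6%) were called, 2083 (23.3%) higher and 2174 (24.3%) lower in Klk6 cells. With the size factors of DESeq2 (RLE scaling) in the same test, the split was 1624 higher and 2858 lower. The median log2 change of all genes was -0.12 under that scaling and -0.0049 under the main one, so small changes are read against that shift.

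The others were not held to the limit on neuronal, microglial and endothelial genes. Of them, 1845 cells exceeded that limit, with a median of 11347 UMIs per cell and 1120.3 CPM of the synaptic gene Snap25. Among the 14 neuron markers that the limits did not use, the summed level was 88.0 to 1262 CPM over libraries in Klk6 cells and 59.6 to 7871 CPM in the others, and none was at 0 in Klk6 cells. All 14 were called lower in Klk6 cells, with a median log2 change of -2.32. When the others were cut to the 6373 cells within the limit, 2017 of 8573 genes (23.5%) were called, 999 (11.7%) higher and 1018 (11.9%) lower. The neuron markers were then 59.6 to 2194 CPM in the others, and 11 of 14 were called lower with a median of -0.51. Changes within the limit are therefore given beside the main ones.

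S100b led the calls of abundant genes. It stood at 922, 1327 and 733 CPM in Klk6 cells of the female and 977, 1326 and 938 CPM in those of the male libraries. In the others it stood at 113, 146 and 158 CPM in the female and 128, 162 and 120.1 CPM in the male libraries. The groups were far apart, with a log2 change of 3.15 ± 0.11 (SE, edgeR quasi-likelihood test, adjusted p = 7.17e-20) and 2.62 within the limit. An S100b UMI was seen in 8.33% of the neurons described above, against 78.4% of Klk6 cells and 27.2% of the others.

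Plin3, a coat protein of lipid droplets, averaged 549 ± 108 CPM in Klk6 cells and 79.5 ± 21.9 CPM in the others (SD, n = 6 each; log2 change 3.01, and 2.39 within the limit). Pmp22, a tetraspan protein best known from peripheral myelin, averaged 774 ± 69.1 CPM in Klk6 cells and 161 ± 42.5 CPM in the others (log2 change 2.54, and 2.00 within the limit). Sepp1, the secreted selenium carrier selenoprotein P, averaged 2235 ± 345 CPM in Klk6 cells and 493 ± 189.8 CPM in the others (log2 change 2.42, and 1.93 within the limit). Exons of Sepp1 overlap those of Ccdc152 on the opposite strand, those of Hopx overlap Hopxos and those of Cdkn1c overlap Gm44732. Whether counting used strand is not stated in the labels, so reads of such partners cannot be told apart.

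Scarcer genes were also among the leading calls, and Rab37 had the highest fold change of those with at least 20 CPM. Rab37, a small GTPase of secretory vesicles, stood at 15.6 to 33.2 CPM in libraries of Klk6 cells and 1.35 to 2.29 CPM in the others (log2 change 4.04, and 3.61 within the limit). Hopx, a homeodomain protein that does not bind DNA, averaged 28.4 ± 12.1 CPM in Klk6 cells and 4.37 ± 2.18 CPM in the others (log2 change 3.03, and 3.20 within the limit). Cdkn1c, an inhibitor of cyclin-dependent kinases, averaged 100 ± 21.7 CPM in Klk6 cells and 13.9 ± 1.49 CPM in the others (log2 change 2.95, and 2.48 within the limit). Nkx2-9, a homeodomain transcription factor below that level, averaged 17.3 ± 5.29 CPM in Klk6 cells and 0.772 ± 0.652 CPM in the others (log2 change 4.30, and 3.82 within the limit). For Rab37, Hopx, Cdkn1c and Nkx2-9 the ranges of Klk6 cells and others did not overlap. These genes were chosen for their large changes, and the share of all tested genes without overlap was not counted.

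The other leading genes that were higher were 2700046A07Rik, Smtnl2, Cbs, Slc34a3, Agmo, Shroom1, Aven, Slc45a3 and Anxa5. Their log2 changes ran from 2.43 for Anxa5, a phosphatidylserine-binding protein, to 3.30 for 2700046A07Rik, and within the limit from 1.77 for Slc45a3 to 2.74 for 2700046A07Rik. Cbs makes cystathionine from homocysteine, Agmo cleaves ether lipids and Slc34a3 carries phosphate into cells. All 9 were higher in Klk6 cells in 6 of 6 libraries, which the rule for naming them required.

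Of the 15 leading genes that were lower, 3 were too scarce to be tested within the limit. Kirrel3, an adhesion protein of the immunoglobulin family, averaged 1.97 ± 1.58 CPM in Klk6 cells and 21.7 ± 5.34 CPM in the others, with a log2 change of -3.19, and -3.34 within the limit. Slc1a1, a glutamate transporter, averaged 3.88 ± 3.48 CPM in Klk6 cells and 38.2 ± 8.50 CPM in the others, with a log2 change of -2.99, and -3.15 within the limit. Rasal1, a regulator of Ras, had -2.70, and -3.10 within the limit, and Neu4, a sialidase of early oligodendrocytes, had -2.80, and -3.39 within the limit. Other leading genes had smaller changes within the limit. Snhg11 had -3.07 and -1.09 within the limit, Syt4, a synaptic vesicle protein, -2.92 and -0.98, and Rtn1 -2.71 and -1.13. Snhg11, Syt4 and Rtn1 were lower, as were the neuron markers above. They stayed called within the limit, where the neuron markers had a median of -0.51. The part of neuronal RNA in them was not tested.

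Ptgds was the most abundant gene that was lower. It stood at 1293, 2078 and 2111 CPM in Klk6 cells of the female and 1669.6, 1516 and 1659 CPM in those of the male libraries. In the others it stood at 9137, 8152 and 14882 CPM in the female and 6698, 10919.6 and 9415 CPM in the male libraries. The groups did not overlap, with a log2 change of -2.33 ± 0.16 (SE, edgeR quasi-likelihood test, adjusted p = 1.49e-13) and -2.91 within the limit. Free RNA of Ptgds was plentiful, with a UMI in 74.2% of neurons (195.8 CPM). In Klk6 cells a Ptgds UMI was seen in 85.1% of cells (1702 CPM). The share of cells therefore says little and the level is the value to read. How much of the level in Klk6 cells was free RNA was not tested.

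A population held to the same limit on other markers was that of Il33 oligodendrocytes, defined here as 3219 gated cells with at least 1 Il33 UMI, fewer than 3 UMIs of Klk6, Anln and Serpinb1a, and at most 1 UMI of Gad1, Slc17a6, Cx3cr1 and Cldn5. Their median was 4517 UMIs. The summed neuron markers were 43.9 to 1475 CPM over libraries of Il33 oligodendrocytes, against 88.0 to 1262 CPM in Klk6 cells, and Snap25 was not called (log2 change -0.03, adjusted p = 0.859, edgeR quasi-likelihood test; 84.6 ± 47.2 CPM in Klk6 cells and 84.0 ± 48.7 CPM in Il33 oligodendrocytes). Of 8065 genes tested, 1696 (21.0%) were called, 867 (10.8%) higher and 829 (10.3%) lower in Klk6 cells. This comparison uses the same sums of Klk6 cells as the one against the others, and the Il33 oligodendrocytes are part of the others. The comparisons are therefore not independent of each other.

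Klk6 itself averaged 5.04 ± 2.29 CPM in Il33 oligodendrocytes and Hapln2 322 ± 83.4 CPM. Il33 averaged 1443 ± 323 CPM there and was 0 in Klk6 cells because the limits set it so. S100b averaged 1037 ± 239 CPM in Klk6 cells and 60.5 ± 18.6 CPM in Il33 oligodendrocytes (SD, n = 6 each), a log2 change of 4.02 ± 0.07 (SE, adjusted p = 2.62e-39, edgeR quasi-likelihood test). Rab37 stood at 15.6 to 33.2 CPM in Klk6 cells and 0 to 0.657 CPM in Il33 oligodendrocytes, where it was 0 in 3 of 6 libraries. Hopx averaged 28.4 ± 12.1 CPM in Klk6 cells and 0.582 ± 0.482 CPM in Il33 oligodendrocytes. Plin3 averaged 549 ± 108 CPM in Klk6 cells and 58.8 ± 15.2 CPM in Il33 oligodendrocytes. The library ranges of these 4 genes did not overlap between the populations. They were named for large changes with the same sign in all libraries, and the share of all tested genes without overlap was not counted.

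Enpp6, a choline-releasing phosphodiesterase that is widely used to mark newly forming oligodendrocytes, was among the 10 leading genes that were higher. It stood at 275, 244 and 235 CPM in Klk6 cells of the female and 237, 232 and 233 CPM in those of the male libraries. In Il33 oligodendrocytes it stood at 14.1, 21.6 and 13.2 CPM in the female and 38.4, 26.1 and 11.7 CPM in the male libraries. The log2 change was 3.29 ± 0.11 (SE, adjusted p = 5.07e-27, edgeR quasi-likelihood test), and no library overlapped. An Enpp6 UMI was seen in 63.8% of Klk6 cells, 4.66% of Il33 oligodendrocytes and 0.679% of neurons.

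Most other genes of newly formed and early myelinating oligodendrocytes were lower. Gpr17, a receptor of that stage, stood at 0 to 5.67 CPM in libraries of Klk6 cells and 11.8 to 25.9 CPM in the others (log2 change -2.62), and Fyn, a kinase of early myelination, stood at 14.7 to 40.4 CPM in libraries of Klk6 cells and 97.0 to 300.2 CPM in the others (log2 change -1.60). Against the others, 13 of 19 tested genes of this kind were lower and 2 were higher, Enpp6 (2.22) and the receptor gene Lpar1 (0.41). Of all genes tested there, 24.3% were lower and 23.3% higher. Against Il33 oligodendrocytes Gpr17 was too scarce to be tested, and Fyn had a log2 change of -0.96 with overlapping ranges. Of the 909 gated cells with fewer than 3 UMIs of Klk6, Anln and Serpinb1a and no Il33, within the limit on other markers, the sums were 261.8 CPM Enpp6, 133.5 CPM Gpr17 and 660.5 CPM Fyn. The Klk6 cells had 241.4 CPM Enpp6, 2.81 CPM Gpr17 and 35.7 CPM Fyn when summed in the same way. Of 15 genes of the same list that were tested against Il33 oligodendrocytes, Enpp6 was the 1 called higher and 10 were called lower. Of all genes tested in that comparison, 10.8% were higher and 10.3% lower. The median of the list was -0.94 against -0.013 for all genes tested.

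The leading genes that were lower than in Il33 oligodendrocytes were Gabrr2, Btbd16, Kirrel3, Rasal1, Ptgds, Abca8a, Gm42756, Arhgef19, Synpr and Aebp1. Gabrr2, a subunit of GABA-gated chloride channels, stood at 0 to 2.65 CPM in libraries of Klk6 cells and 17.0 to 48.3 CPM in Il33 oligodendrocytes. Ptgds averaged 1721 ± 319.8 CPM in Klk6 cells and 17122 ± 1927 CPM in Il33 oligodendrocytes, a log2 change of -3.38 ± 0.07 (SE). Synpr, a synaptic vesicle protein, stood at 0 to 26.5 CPM in Klk6 cells and 56.4 to 97.2 CPM in Il33 oligodendrocytes. All 10 were lower in Klk6 cells in 6 of 6 libraries, which the rule for naming them required. Their log2 changes ran from -2.51 for Aebp1 to -3.92 for Gabrr2.

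**Figure D3:**
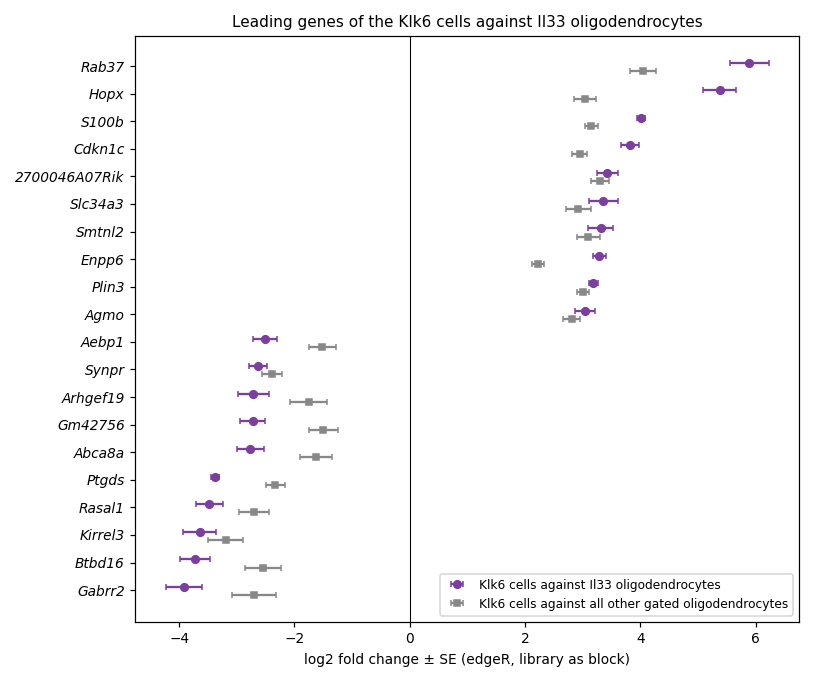
Log2 fold changes with SE for the 10 leading genes in each direction of Klk6 cells against Il33 oligodendrocytes (circles), with the change of the same genes against all other gated oligodendrocytes (squares), both with library as block. Each of the 20 genes has the same sign in both, from 5.89 for Rab37 to -3.92 for Gabrr2 against Il33 oligodendrocytes. Both use the same Klk6 cell sums, and the Il33 oligodendrocytes are part of the others, so the same sign was likely beforehand.

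Gene lists were described by how many of their tested members were called in this comparison, beside the 10.8% higher and 10.3% lower of all genes. Genes of myelin membranes were divided. Of 24 tested, 7 were higher and 10 lower, with a median of -0.10. Pmp22 rose most, to 774 ± 69.1 CPM in Klk6 cells against 129 ± 30.4 CPM in Il33 oligodendrocytes (log2 change 2.67). Cd9, a tetraspanin, fell to 433 ± 70.4 CPM in Klk6 cells, against 1783 ± 108 CPM in Il33 oligodendrocytes (log2 change -2.07). Opalin fell to 588 ± 27.2 CPM in Klk6 cells, against 1952 ± 153 CPM in Il33 oligodendrocytes (log2 change -1.77). Mbp and Mobp, which encode proteins of compact myelin, had log2 changes of 0.01 and 0.00 and were not called.

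Genes of lipid synthesis were more often higher. Of 23 tested genes of cholesterol synthesis, 12 were higher and 2 lower, with a median of 0.32. Sqle, which makes squalene epoxide, averaged 119.9 ± 17.6 CPM in Klk6 cells and 60.2 ± 14.0 CPM in Il33 oligodendrocytes (log2 change 0.90), and Insig1, which holds the pathway back, was 1 of the 2 lower genes (-0.51). Of 32 tested genes of myelin sphingolipids and fatty acids, 15 were higher and 8 lower, with a median of 0.25. Ugt8a, which makes the myelin lipid galactosylceramide, averaged 1042 ± 75.6 CPM in Klk6 cells and 637 ± 115 CPM in Il33 oligodendrocytes (log2 change 0.72), and Elovl5, a fatty acid elongase, had 0.97. Fads1, a desaturase, had -1.41 and Acsl3, which activates fatty acids, -0.88.

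Of 43 tested genes of the actin and microtubule cytoskeleton, 20 were higher and 6 lower, with a median of 0.11. Tubb3 is a tubulin used as a neuronal marker. It averaged 321 ± 84.5 CPM in Klk6 cells and 123 ± 43.2 CPM in Il33 oligodendrocytes (log2 change 1.41). Tppp3, which binds microtubules, had 1.29 and Msn, an actin linker at the membrane, 1.90, and Marcks, which binds actin and membranes, had -1.23. Of 6 tested septins, Sept8 (log2 change 0.86) and Sept7 (0.30) were higher and Sept4 (-0.42) was lower. These septins are filament proteins that anillin binds.

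Gjb1, a connexin of oligodendrocytes, stood at 572 to 923 CPM in libraries of Klk6 cells and 277 to 378 CPM in Il33 oligodendrocytes (log2 change 1.24). Gjc3, another connexin gene of the list, was lower (-0.26). Across the list of channels, transporters and connexins, 6 of 26 tested genes were higher and 10 lower, with a median of -0.09. Among 11 tested genes of growth factors and secreted signals, 5 were higher and 2 lower. Sepp1 averaged 2235 ± 345 CPM in Klk6 cells and 385 ± 138 CPM in Il33 oligodendrocytes (log2 change 2.61). Apod averaged 3315 ± 537 CPM in Klk6 cells and 1414 ± 216 CPM in Il33 oligodendrocytes (1.23). Pdgfa, the growth factor of oligodendrocyte precursors, had 0.91 and Fgf1 0.84.

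Transcription factors of the lineage were lower more often than higher, with 3 of 17 tested higher and 8 lower and a median of -0.16. Nkx2-9 averaged 17.3 ± 5.29 CPM in Klk6 cells and was 0 in 4 of 6 libraries of Il33 oligodendrocytes. The other 2 higher genes were Hopx and Nkx2-2 (0.37). Olig2 had -0.88 and Olig1 -0.40, both of them factors of the whole lineage, and Sox10 (-0.15) was not called.

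A list drawn up as genes of late Il33-type oligodendrocytes, among them Ptgds, S100b, Cdkn1c, Anxa5, Sepp1, Apod and Trf, had 10 of 20 tested genes higher and 8 lower in Klk6 cells than in Il33 oligodendrocytes, with a median of 0.20, so its name does not describe the direction of its members. Trf, which encodes transferrin, averaged 13458 ± 2432 CPM in Klk6 cells and 7492 ± 1762 CPM in Il33 oligodendrocytes (log2 change 0.81). Of 10 tested genes of iron and metal handling 3 were higher, Trf, the ferritin gene Fth1 (0.43) and the transferrin receptor gene Tfrc (0.70), and 3 were lower, among them the metallothionein genes Mt1 (-0.77) and Mt2 (-0.96).

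Genes of the extracellular matrix and of axon contact were lower more often. Of 12 tested genes of the perinodal and extracellular matrix, 3 were higher and 6 lower, with a median of -0.34, and Hapln2 was not among those tested. Spock3, a matrix proteoglycan, averaged 582 ± 72.4 CPM in Klk6 cells and 215 ± 47.8 CPM in Il33 oligodendrocytes (log2 change 1.47), whereas Tnr (tenascin R) had -1.49 and the proteoglycan gene Bcan -1.39. Of 22 tested genes of axon contact and the paranode, 3 were higher and 8 lower, with Cntn1, an axonal adhesion gene, at -1.61. Of 9 tested genes of serine proteases, serpins and protease-activated receptors, the secreted protease gene Htra3 was higher (1.75) and 3 were lower.

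Of 32 tested genes of signalling receptors, 4 were higher and 12 lower, with a median of -0.18. Of 19 tested genes of glycolysis and lactate, 4 were higher and 4 lower, with Ldhb, a subunit of lactate dehydrogenase, at 373 ± 52.4 CPM in Klk6 cells and 112 ± 51.4 CPM in Il33 oligodendrocytes (log2 change 1.57) and Ldha at -0.91. Reactive and immune genes were mostly lower, with 6 of 11 tested lower and 1 higher and a median of -0.33, and Apoe at 952 ± 389 CPM in Klk6 cells and 2758 ± 591 CPM in Il33 oligodendrocytes (-1.54). Of 14 tested glucocorticoid-responsive genes, 1 was higher, Errfi1 (0.81), and 5 were lower. Of 13 mitochondrially encoded genes, 8 were lower and 1 higher, with a median of -0.24 and changes from -0.32 to 0.62.

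Early response and dissociation genes, which a protease treatment of living tissue can induce, also differed. Of 24 tested, 7 were higher and 5 lower, with a median of 0.20. Fos stood at 1449.7, 1032 and 2199 CPM in Klk6 cells of the female and 852, 829 and 2349.7 CPM in those of the male libraries, against 832, 676 and 1063 CPM in Il33 oligodendrocytes of the female and 683, 649 and 945 CPM in those of the male libraries (log2 change 0.65). The ranges overlapped, and the third library of each sex was the highest of its sex in Klk6 cells. A Fos UMI was seen in 47.4% of Klk6 cells and 52.7% of Il33 oligodendrocytes, so the higher sum came from a smaller share of cells. Dnajb1, a heat shock gene, had a log2 change of 1.03 and was between 90.7 and 909 CPM over libraries of Klk6 cells.

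Markers of other cell types were low. Over libraries, astrocyte markers summed to 117 to 296 CPM in Klk6 cells and 87.8 to 329 CPM in Il33 oligodendrocytes, and microglia and macrophage markers to 58.6 to 215 CPM in Klk6 cells and 39.5 to 280.4 CPM in Il33 oligodendrocytes. Endothelial markers summed to 13.9 to 19.1 CPM in Klk6 cells and 8.78 to 27.2 CPM in Il33 oligodendrocytes, and none of the 7 was at 0 in Klk6 cells. Of 8 tested astrocyte markers 1 was higher and 3 lower, and of 5 microglia and macrophage markers and of 7 oligodendrocyte precursor markers 3 each were lower and 0 higher. Of 13 tested neuron markers none was higher and 3 were lower, Tac1 (log2 change -1.73), Meg3 (-0.72) and Stmn2 (-0.31). The part of these cell types in the differences above was not tested.

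**Figure D4:**
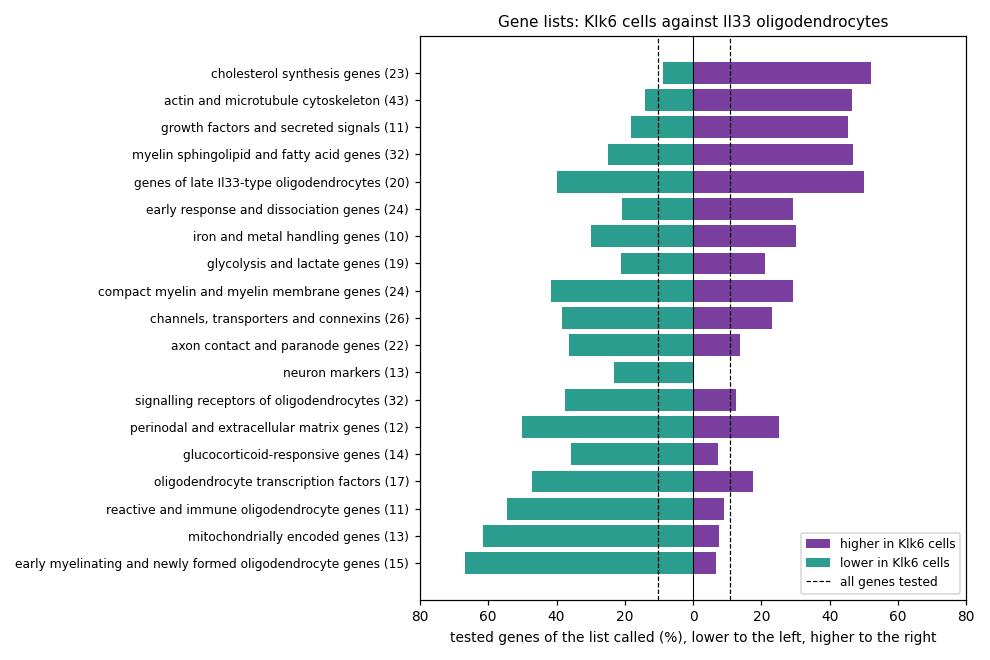
For each gene list with at least 10 tested genes (their number in brackets), bars give the percentage of tested genes called higher (right) and lower (left) in Klk6 cells than in Il33 oligodendrocytes. Dashed lines mark 10.8% higher and 10.3% lower among all 8065 genes tested, and the bars for cholesterol synthesis (12 of 23 higher) and early myelinating and newly formed oligodendrocyte genes (10 of 15 lower) lie at the ends.

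Sex was not used to choose the cells, so the last comparisons asked whether Klk6 cells differed between female and male pools. They made up 9.62%, 8.45% and 12.1% of gated cells in the female libraries, with exact 95% binomial intervals of 7.93 to 11.5%, 7.45 to 9.53% and 7.24 to 18.7%. In the male libraries they made up 10.8%, 10.8% and 12.6%, with intervals of 9.40 to 12.3%, 9.64 to 12.1% and 10.2 to 15.3%. The mean was 10.1 ± 1.89% in females and 11.4 ± 1.03% in males (SD, n = 3 each), the ranges overlapped, and the difference of -1.32 percentage points did not pass an exact two-sided permutation test (p = 0.4, where 0.1 is the smallest p that 3 against 3 libraries can give). Females were lower than the male library of the same number in 3 of 3 pairs, which gave p = 0.25, the smallest that 3 pairs can give (exact paired permutation test). When only gated cells within the limit on other markers were counted, the shares were 11.7%, 11.5% and 12.1% in females and 14.6%, 12.4% and 14.1% in males. They then did not overlap, with a difference of -1.92 percentage points and the smallest possible p (exact two-sided permutation test, p = 0.1). Other ways of choosing the cells gave smaller differences, with overlapping ranges. The difference was -0.59 percentage points at a threshold of 5 UMIs (exact two-sided permutation test, p = 0.7). With cells thinned to 3000 UMIs before the gate it was -0.88 percentage points (exact two-sided permutation test, p = 0.3). Without doublets it was -1.19 percentage points (exact two-sided permutation test, p = 0.3).

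Within Klk6 cells, 4 of 6971 genes (0.0574%) were called between the sexes by the edgeR quasi-likelihood test with Benjamini-Hochberg adjustment, 1 of them (0.0143%) higher and 3 (0.0430%) lower in females. Xist, the RNA that silences 1 X chromosome, stood at 614, 642 and 454 CPM in females and 0 in all 3 male libraries, which was at least 619-fold higher in females against a floor of 3 UMIs over the 3 libraries. The Y-linked genes Ddx3y, Eif2s3y and Uty were 0 in all 3 female libraries and reached 94.0, 90.7 and 15.3 CPM in the highest male library, at least 60.8-, 52.3- and 10.0-fold lower in females against the same floor. Uty had an adjusted p of 0.0205. It missed the threshold without female replicate 1 (adjusted p = 0.0743) and without male replicate 3 (adjusted p = 0.0534) in the same test. It passed without female replicate 3 (adjusted p = 0.0282, edgeR). It was not among the genes tested when female replicate 2, male replicate 1 or male replicate 2 was left out. Under DESeq2 its adjusted p was 0.404. DESeq2 called 3 genes, and 213 genes had an unadjusted p under 0.05 in the edgeR test.

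No gene outside the sex chromosomes was called. The smallest p among the glucocorticoid-responsive genes was that of Sgk1, a kinase gene that glucocorticoids induce. It stood at 111, 165 and 557 CPM in females and 626, 325 and 844 CPM in males. Females averaged 278 ± 243 CPM and males 598 ± 260 CPM (SD, n = 3 each), with overlapping ranges and a log2 change of -1.61 ± 0.43 (SE, adjusted p = 0.909, edgeR quasi-likelihood test). Sgk1 passed the threshold with the replicate number as a block (-1.41, adjusted p = 0.0189, edgeR), where Uty missed it (adjusted p = 0.0669), and it passed without female replicate 3 (-2.09, adjusted p = 0.0274, edgeR), when 8 genes were called in all. It also passed when cells were thinned to 2000 UMIs (-1.86, adjusted p = 0.0176, edgeR) and without the filter on low counts (adjusted p = 2.57e-10, edgeR). It did not pass with RLE scaling (adjusted p = 0.985), without doublets (0.669) or thinned to 3000 UMIs before the gate (0.132, all edgeR). Nor did it pass at a threshold of 5, with any other single library left out (edgeR) or under DESeq2. Of the 14 tested glucocorticoid-responsive genes 13 had a negative change, with a median of -0.29 against -0.0088 for all genes, and 0 were called. Other lists leaned as far or farther with 0 calls. All 5 tested microglia and macrophage markers were negative (median -1.00), 5 of 7 astrocyte markers were negative (median -0.38), and 19 of 23 early response genes were positive (median 0.33). The part of these in the glucocorticoid-responsive genes was not tested.

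Nfkbia, an inhibitor of NF-kappa-B, averaged 90.1 ± 62.6 CPM in females and 133 ± 31.8 CPM in males, and Ddit4, a stress gene that restrains mTOR, averaged 172 ± 91.9 CPM in females and 243 ± 64.0 CPM in males. Neither was called, although Nfkbia was called without the filter on low counts (-1.04, adjusted p = 0.0179, edgeR), and in both the third female library lay within the male range. Egr2 had the smallest p of the early response genes. It averaged 52.0 ± 57.1 CPM in females and 7.82 ± 6.62 CPM in males, with overlapping ranges, and was not called. Hsp90aa1 and Jund had higher levels in all 3 female than in all 3 male libraries. They averaged 1799 ± 283 and 963 ± 245 CPM in females and 1292 ± 82.4 and 639 ± 129 CPM in males, but were not called either. Fdft1, a gene of cholesterol synthesis, separated the other way, with 88.0 to 104 CPM in females and 110 to 151 CPM in males. It was not called. The share of all tested genes that separated the sexes in either direction was not counted. Of 23 tested early response genes and 23 tested cholesterol genes 0 were called.

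The sex difference in Klk6 cells was then set against that in the others with limma, with trend, on the difference between Klk6 cells and others in each library. Of 8946 genes 0 were called (0%), and 61 had an unadjusted p under 0.05. For Sgk1 the female minus male difference in Klk6 cells less that in the others was -0.84 in log2 units (adjusted p = 0.874, limma).

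**Figure D5:**
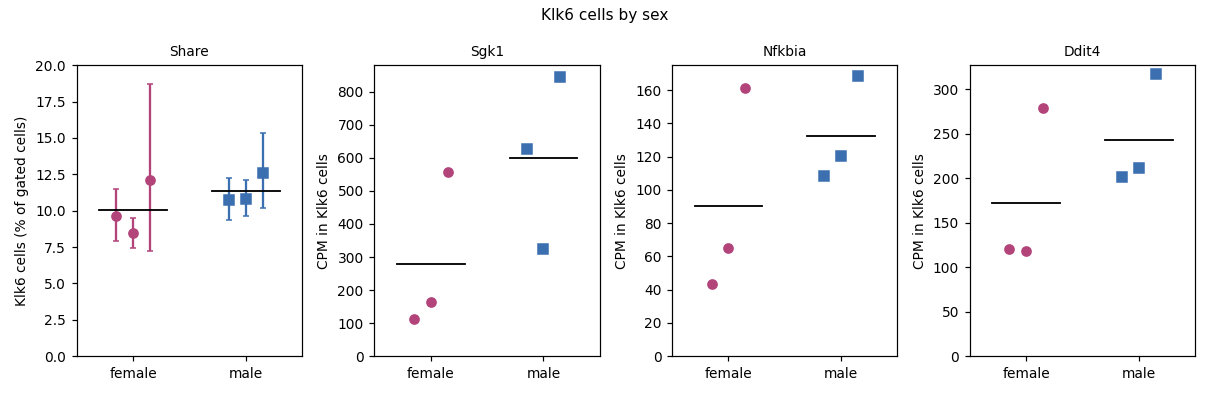
The first panel gives the share of Klk6 cells among gated cells in each library with exact 95% binomial intervals, and the others give CPM of Sgk1, Nfkbia and Ddit4 in Klk6 cells of each library. Lines are means of 3 libraries. The female and male ranges overlap in every panel.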

How the data were processed

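Single-cell RNA was measured with 10x Chromium in 6 pools of mouse preoptic tissue. The authors deposited 1 table of whole-number UMI counts for 27998 genes and 31299 barcodes, made with Cell Ranger 2.0.0 on mm10, per the submitters' processing notes. Whether counting used strand is not stated in the labels. The library of a cell was taken from the ending of its barcode, which the sample descriptions tie to a pool. The members, gene lists and comparisons were chosen with earlier results of these data known.

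Counts were summed per library and population, from 68210 to 1509859 UMIs in Klk6 cells, and tested with edgeR 4.0.16 (TMM scaling, filterByExpr with a minimum count of 10, quasi-likelihood test, Benjamini-Hochberg threshold 0.05) in R 4.3.3. DESeq2 1.42.0, another scaling, no filter, thinned cells, a higher threshold, no doublets and each library left out were alternatives. Sex differences between populations used limma 3.58.1 with a prior count of 2, and shares used exact permutation tests with scipy 1.17.1. Doublets were marked with Scrublet in scanpy 1.11.5 and kept. The tests were tested on simulated data. Exact (Clopper-Pearson) intervals and floors of 3 counts cover counting error only, since cells of a pool are not independent replicates.

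Genes named were the leading called genes with the same sign in all libraries and a mean of at least 20 CPM, up to 15 per direction against the others and 10 against Il33 oligodendrocytes, and up to 3 per list by p. Others, such as Nkx2-9, Fads1, Acsl3, Insig1, Msn, Gjc3, Sox10 and Tfrc, were chosen after their values were seen. Barcodes below the limits on genes or mitochondrial UMIs (475) were left out. Results for some genes of the lists are not reported here.

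The numbers 1, 2 and 3 occur in both sexes, and no label says that a number marks a shared litter or day. Deviations from the sex means in Klk6 cells correlated at 0.124, 0.154 and 0.219 between same-numbered pools, each over 0.1, although female replicate 2 with male replicate 1 reached 0.243, above all of them. Under the rule that every same-numbered pair exceed 0.1, the replicate number was treated as a pairing, as a hint from the data and not from the design, and used as a block in an alternative.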

Additional observations from a re-analysis of the deposited data

How the results depend on the processing

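Counts of called genes moved with the processing more than named genes did. Against the others, DESeq2 called 1310 genes higher, and testing without a filter on low counts called 3459 lower. Thinning each cell to 2000 UMIs after the gate gave 1733 calls (838 higher, 895 lower), and thinning to 3000 UMIs before the gate gave 1542 (741 and 801). Without a library block 2518 were called (1070 and 1448), and with others within the limit on other markers 2017 (999 and 1018). With 1 library left out, the calls ranged from 3291 to 5100 (1425 to 2509 higher, 1782 to 2760 lower). Against Il33 oligodendrocytes, thinning after the gate gave 870 calls (450 and 420), thinning before it gave 571 higher, and no library block gave 741 (420 and 321). Leaving out 1 library gave 1282 to 1769 (656 to 963 higher, 626 to 806 lower). The causes were not tested.

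Between the sexes, no filter gave 22 calls (11 and 11). Leaving out 1 library gave 3 to 8 calls (1 to 3 higher, 2 to 6 lower in females), with 8 without female replicate 3, and moved the share difference between -2.35 and -0.51 percentage points. The difference between populations stayed at 0 calls. Pairing by replicate number, as a replicate block, gave a share difference of -1.32 points (p = 0.25, the smallest that 3 pairs can give, exact paired permutation test) and 4 called genes, with the changes for Sgk1 and Uty given above. The adjusted p of Sgk1 ran from 2.57e-10 without a filter to 1.00 without female replicate 1 (edgeR).

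Some small changes reversed in sign. In the comparisons of populations these were Ddit4 (-0.061) and Pbdc1 (-0.069) when cells were thinned before the gate, mt-Atp8 (-0.012) within the limit, and Slc4a4 under DESeq2 (-0.060) and thinned before the gate (-0.41). Between the sexes these were Utp14a (-0.0047) without female replicate 3, Eif2s3x (-0.0085 without male replicate 1, up to 0.14 with another library left out, and -0.060 at a threshold of 5), Pbdc1 (-0.11) thinned after the gate, and Kdm5c (0.35) thinned before it. Of the other values of named genes, 2044 kept direction and side of the threshold, 52 lost it and 8 gained it.

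Female replicate 3, with 17 Klk6 cells, limits what can be seen between the sexes, and 3 against 3 pools cannot reach p under 0.1 for a share.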
